A study of Mus musculus with 8 samples.

Results

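The genes described here are those of the hypoxia-inducible factor (HIF) pathway and a set of its known targets, in mouse corneas from a model of dry eye disease. Members were chosen by symbol from a set of 10, namely the HIF alpha subunits Hif1a, Epas1 and Hif3a, the prolyl hydroxylases Egln1 and Egln3, and the targets Adm, Ankrd37, Ndrg1, Ddit4 and Mgarp. A row was present for 9 of the 10, among 13437 genes in the table, and Hif3a was not analysed here. The animals were females of the strain C57BL/6, between 6 and 8 weeks old, and corneas were taken at day 7. The BAC group, the model of dry eye disease, was given drops of 5 µl with 0.2% BAC, 2 per day in each eye over 7 days, and the control group was given PBS. There were 4 samples per group. The number of animals or eyes behind a sample is not stated in the labels, and p-values therefore measure only the spread between these samples, which may be technical. Values are FPKM, fragments scaled to gene length and to the fragments sequenced.

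HIF is a transcription factor made of an oxygen-regulated alpha subunit and a constant beta subunit. When oxygen is present, prolyl hydroxylases mark the alpha subunit for degradation through the von Hippel-Lindau ubiquitin ligase; when oxygen is short, the alpha subunit persists, pairs with the beta subunit and switches on genes for glycolysis, vessel growth and survival. This control acts on the protein, which RNA does not show. The cornea has no vessels of its own and takes most of its oxygen from the air across the tear film.

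HIF binds DNA at the core ACGTG or GCGTG. The 250 bases upstream of the gene start of 4 members are shown because these members had the highest folds in either direction, with cores on either strand in capitals, from the RefSeq annotation of GRCm38.p6, 5′ to 3′ on the strand of the gene.
Egln3, chr12:54203875-54204124, minus strand: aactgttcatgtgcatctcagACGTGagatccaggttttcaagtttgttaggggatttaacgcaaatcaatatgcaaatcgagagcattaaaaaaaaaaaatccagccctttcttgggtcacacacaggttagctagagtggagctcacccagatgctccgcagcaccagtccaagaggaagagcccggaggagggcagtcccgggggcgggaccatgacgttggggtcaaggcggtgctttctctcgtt
Mgarp, chr3:51396548-51396797, minus strand: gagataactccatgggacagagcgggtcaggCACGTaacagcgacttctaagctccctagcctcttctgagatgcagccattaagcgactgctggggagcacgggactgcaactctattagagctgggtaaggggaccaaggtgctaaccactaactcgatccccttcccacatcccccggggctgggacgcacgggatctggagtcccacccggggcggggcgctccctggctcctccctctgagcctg
Ankrd37, chr8:45999851-46000100, minus strand: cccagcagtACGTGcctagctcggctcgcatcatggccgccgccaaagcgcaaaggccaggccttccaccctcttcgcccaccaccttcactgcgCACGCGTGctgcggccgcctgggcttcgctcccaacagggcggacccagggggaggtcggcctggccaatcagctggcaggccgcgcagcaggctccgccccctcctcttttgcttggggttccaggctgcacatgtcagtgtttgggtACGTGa
Ddit4, chr10:59951771-59952020, minus strand: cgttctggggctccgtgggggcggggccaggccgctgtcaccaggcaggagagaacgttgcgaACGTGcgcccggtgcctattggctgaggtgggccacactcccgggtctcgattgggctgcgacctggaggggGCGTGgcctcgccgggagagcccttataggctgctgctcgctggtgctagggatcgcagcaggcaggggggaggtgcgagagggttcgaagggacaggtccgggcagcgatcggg
The RefSeq start need not be that of the gene span given further on, which is from the authors' table: the Ankrd37 window lies inside that span, and those of Mgarp and Ddit4 reach into theirs. The core starts 229 bases before the RefSeq start of Egln3 and 219 bases before that of Mgarp. Adjacent or overlapping cores share a capital stretch in Ankrd37, whose nearest core starts 6 bases before its RefSeq start. Of the 9 members with values, 7 had such a window (Epas1 and Ndrg1 had no entry), and all 7 windows held a core, the members that fell as well as those that rose. Among all 32851 windows of this length 38.6% held either core, with ACGTG in 16.6% and GCGTG in 28.2%. The members' windows held 7 to 51 CG dinucleotides, and 60.9% of the 15211 windows with at least 7 held a core. A match describes letters and is not a bound site.

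The summed FPKM ran from 268629 to 283538 per sample, with unknown read depth. Libraries of 1 group correlated across genes with Pearson's r of 0.977 to 0.986 on the log2 scale. Markers of the cell types in the cornea moved with treatment. Their counts are calls of the limma test described below, by which 45.1% of all genes were higher and 22.6% lower. Of 12 markers of corneal epithelium 11 were lower with BAC and 1, the basal keratin gene Krt14, was higher. Their summed FPKM was 4327 to 5602 with BAC and 25862 to 27719 with PBS. Within that sum Krt5 and Krt14 together held 3889 to 4952 FPKM with BAC and 5422.5 to 5949 FPKM with PBS, so most of the fall lay in the other markers. Krt12, the defining keratin of this epithelium, stood at 8.50 to 14.96 FPKM with BAC and 10032.5 to 10586 FPKM with PBS. All 10 neutrophil markers were higher, with summed FPKM of 486 to 1392 against 4.77 to 29.3, the highest in BAC 3, and Mmp8, Retnlg and Trem1 were listed at 0 in every PBS library. Of these 10 rows 8 averaged under 0.5 FPKM with PBS and passed the filter on low values, a mean of 0.5 FPKM over all samples, only through BAC, so their direction was fixed and the count is no evidence; the sums do not depend on it. Higher rows numbered 9 of 11 for macrophages and monocytes (841 to 1078 against 66.3 to 73.1 FPKM in sum). For blood and lymphatic endothelium they numbered 10 of 10 (127 to 165 against 7.92 to 16.7), and 8 under quantile normalization. For keratocytes and fibroblasts 8 of 11 were higher and 2 lower (2366 to 2904 against 624 to 1348). Of 6 rows for corneal endothelium 2 were higher and 1 lower (329 to 361 against 205 to 410 FPKM in sum), and of 5 red blood cell rows 4 were higher and 1 lower (21.6 to 53.5 against 2.74 to 12.9). The same holds for 2 of the macrophage and monocyte rows, 1 row each for vessel endothelium and red blood cells and, through PBS, 1 row for corneal epithelium. Krt5, Krt14, Mmp8, Retnlg and Trem1 are named after their values were seen. The part of these markers in the changes below was not tested. In bulk tissue, fewer cells of a type and less RNA per cell cannot be told apart.

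The 9 measured members split by direction. Hif1a, Adm, Ankrd37 and Ddit4 were higher with BAC, and Epas1, Egln1, Egln3, Ndrg1 and Mgarp were lower. All 9 were kept by the filter on low values and all 9 passed the test, limma on log2(FPKM + 1) at an adjusted p of 0.05, as did 67.6% of the 12967 genes tested. Of all genes 45.1% were higher and 22.6% lower. The 2 groups did not overlap for any of the 9 members, nor for 63.5% of all genes. Passing and not overlapping are thus common in this comparison, and the members are described by their size and direction. The median gene lay 0.19 log2 above 0, a shift included in the changes given. Ankrd37, at a mean of 0.420 FPKM with PBS, passed the filter only through its BAC values.

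**Figure D1:**
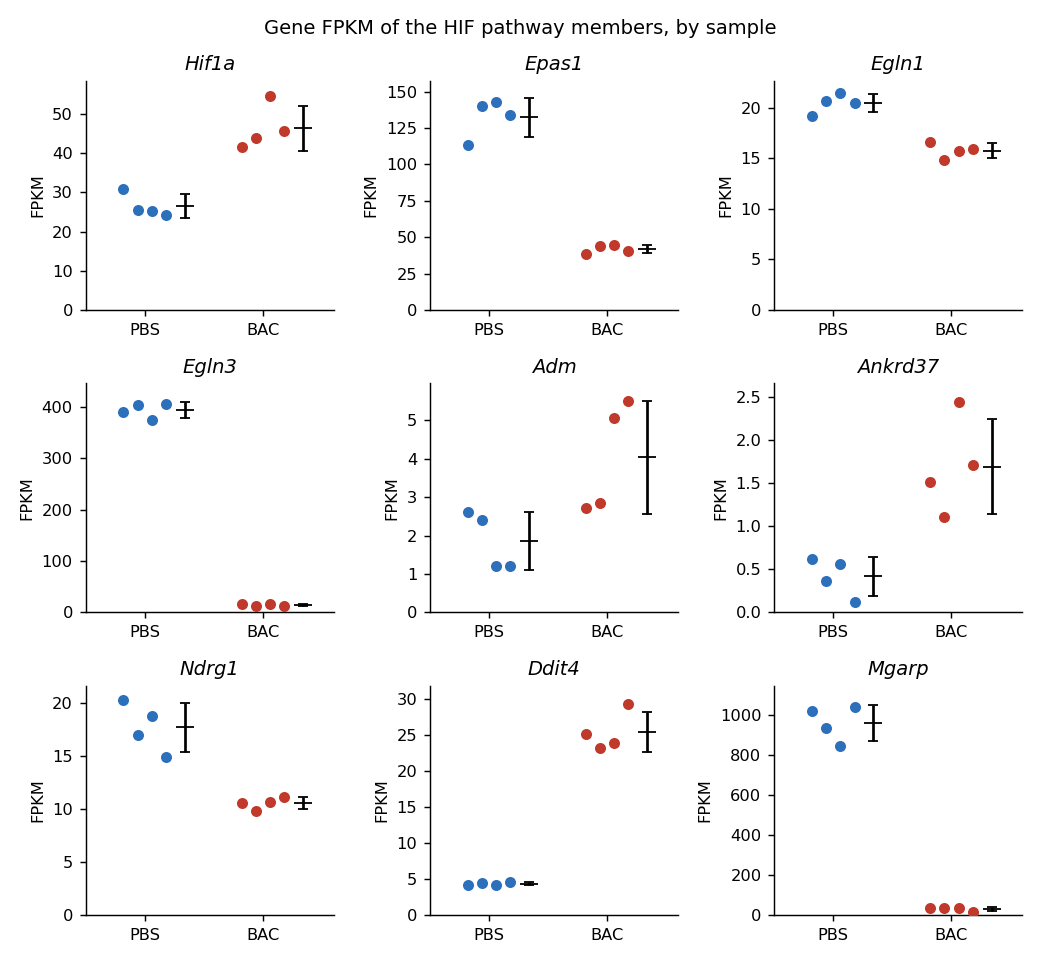
Gene FPKM of the 9 measured members in each library (y axis, linear from 0, a separate scale per gene), with PBS in blue and BAC in red in order of replicate number and the mean ± SD (n = 4) in black. The groups do not overlap in any panel, with Egln3 and Mgarp falling from 394 and 958 FPKM to 14.5 and 28.9 FPKM.

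The HIF alpha subunits changed in opposite directions. Hif1a (ENSMUSG00000021109.13, chr12:73901375-73947530, plus strand, GRCm38), the widely expressed alpha subunit, was at 41.4, 43.7, 54.6 and 45.7 FPKM in BAC 1 to 4 and at 30.9, 25.4, 25.2 and 24.3 FPKM in PBS 1 to 4. Every BAC library lay above every PBS library, with BAC 3 highest and PBS 1 standing above the other controls. The mean rose 1.75-fold, from 26.4 ± 3.03 to 46.4 ± 5.74 FPKM (SD, n = 4; log2 change 0.79, SE 0.10, limma adjusted p = 0.000113). Epas1 (ENSMUSG00000024140.9, chr17:86753907-86833410, plus strand), which encodes HIF-2 alpha, an alpha subunit best known from endothelium and oxygen-sensing cells, was at 38.5, 44.1, 44.4 and 40.4 FPKM in the BAC libraries and 113, 140, 143 and 134 FPKM in the controls. The lowest control, PBS 1, was still far above every BAC library. Epas1 fell 3.16-fold (log2 change -1.63, SE 0.09, limma adjusted p = 2.96e-07), while the markers of endothelium listed above were higher.

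Because FPKM is scaled to length, the alpha subunits can be set side by side within a library. Epas1 was the more abundant in every PBS library, and the pair were close in every BAC library. Hif1a made up 51.8%, 49.8%, 55.2% and 53.0% of their summed FPKM in BAC 1 to 4 against 21.5%, 15.4%, 15.0% and 15.4% in PBS 1 to 4. The groups lay well apart, with PBS 1 above the other controls. The share was 52.4% ± 2.25 with BAC and 16.8% ± 3.12 with PBS, or 35.7 points apart (p = 0.0286 in a two-sided exact permutation test, the lowest value open to 70 assignments; 0.0286 adjusted over the 3 shares and ratios tested). The log2 ratio of Epas1 to Hif1a was -0.14 ± 0.13 against 2.28 ± 0.30 (difference -2.42, same exact p). Apart from the pseudocount this ratio restates the share, so its p adds no separate evidence. The summed FPKM of the pair was 88.2 ± 7.89 with BAC and 159 ± 10.7 with PBS, lower with BAC although Hif1a was higher. Hif3a is not part of this sum. Counted from the summed transcript values instead of the gene values, the Hif1a share was 59.2% against 21.6%.

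At the transcript level the rise of Hif1a lay in its most abundant transcript. Hif1a-201 was at 44.5 ± 4.91 FPKM with BAC and 22.7 ± 2.50 FPKM with PBS (log2 change 0.94, SE 0.10, limma adjusted p = 0.00025). Hif1a-202 was at 12.8 ± 4.02 against 9.38 ± 1.29 FPKM and did not pass (log2 change 0.38, limma adjusted p = 0.214). Hif1a-203 was at 3.56 ± 0.824 against 4.17 ± 1.01 FPKM and did not pass either (log2 change -0.18, limma adjusted p = 0.529). Whether the 3 transcripts differ in their response was not tested. Of 13 transcripts listed for the members 12 were tested, with 2 higher and 7 lower, where 34.6% of 23349 transcripts passed in either direction.

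Egln3 and Egln1, the HIF prolyl hydroxylases among the members, fell by very different amounts. Egln3 (ENSMUSG00000035105.5, chr12:54178981-54203860, minus strand), the hydroxylase PHD3 and itself a known HIF target, was at 16.1, 12.9, 16.2 and 12.6 FPKM in BAC 1 to 4 and at 390, 404, 374 and 407 FPKM in PBS 1 to 4. Every BAC library was far below every control, and neither group held a library apart from the rest. The mean fell 27.2-fold, from 394 ± 14.9 to 14.5 ± 1.95 FPKM (log2 change -4.68, SE 0.09, limma adjusted p = 2.30e-09), the 15th largest fall among all genes tested. By level Egln3 ranked 72 of 13437 genes with PBS and 3359 with BAC. Egln1 (ENSMUSG00000031987.6, chr8:124908587-124949324, minus strand), which encodes PHD2, the main oxygen sensor of most cells, was at 16.7, 14.8, 15.7 and 15.9 FPKM with BAC and 19.2, 20.7, 21.4 and 20.5 FPKM with PBS. The groups were separate but near each other, and Egln1 fell 1.298-fold (log2 change -0.36, SE 0.06, limma adjusted p = 0.000587; log2 change -0.56 under median-of-ratios scaling).

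The ratio of the hydroxylases changed accordingly. The log2 ratio of Egln3 to Egln1 was -0.12 ± 0.16 with BAC and 4.20 ± 0.09 with PBS, which differ by -4.33 (p = 0.0286 in a two-sided exact permutation test, again the lowest possible; 0.0286 adjusted over the 3 tested). Egln2, the third hydroxylase PHD1, was at 16.3 ± 0.875 against 13.4 ± 1.496 FPKM (log2 change 0.27, limma adjusted p = 0.0166). The groups overlapped for Egln2, and its change lay only 0.079 log2 above the median of all genes. Egln2 is named after its values were seen. Egln3 therefore supplied 92.1% ± 0.371 of the summed FPKM of the 3 hydroxylases in control corneas and 31.0% ± 2.91 with BAC. Their sum was 428 ± 14.6 FPKM with PBS and 46.5 ± 2.48 FPKM with BAC.

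**Figure D2:**
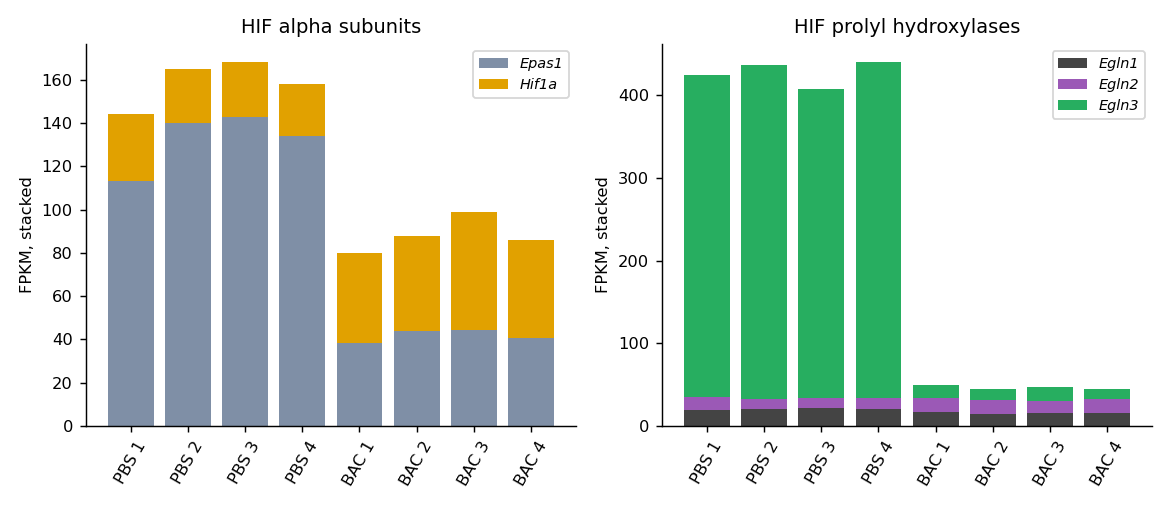
Stacked gene FPKM per library (y axis, linear from 0) of the measured HIF alpha subunits (left) and of the 3 prolyl hydroxylases (right). Hif1a and Epas1 together were at 159 FPKM with PBS and 88.2 FPKM with BAC on average. The summed hydroxylases were at 428 and 46.5 FPKM, with Egln3 the bulk of the control bars.

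Among the targets, Ddit4 rose furthest. Ddit4 (ENSMUSG00000020108.4, chr10:59949669-59951834, minus strand) encodes REDD1, a stress protein that restrains the growth kinase complex mTORC1, and was at 25.1, 23.2, 23.9 and 29.3 FPKM in BAC 1 to 4 against 4.17, 4.38, 4.21 and 4.62 FPKM in PBS 1 to 4. All BAC libraries were high and all controls close together. The mean rose 5.84-fold, from 4.35 ± 0.204 to 25.4 ± 2.74 FPKM (log2 change 2.30, SE 0.08, limma adjusted p = 3.55e-08). Ddit4 also responds to glucocorticoids and to other stresses than low oxygen.

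Adm and Ankrd37 rose from low levels. Adm (ENSMUSG00000030790.15, chr7:110627661-110629820, plus strand) encodes adrenomedullin, a vasodilator peptide, and measured 2.72, 2.84, 5.07 and 5.51 FPKM in BAC 1 to 4, and 2.61, 2.41, 1.22 and 1.20 FPKM in PBS 1 to 4. The groups nearly touched, since BAC 1 and 2 lay just above PBS 1 and 2, while BAC 3 and 4 were high and PBS 3 and 4 low. Adm was 2.17-fold higher (4.03 ± 1.46 against 1.86 ± 0.755 FPKM; log2 change 0.81, SE 0.24, limma adjusted p = 0.0151). After quantile normalization it did not pass (log2 change 0.41, limma adjusted p = 0.178; 0.0108 to 0.178 over 18 alternatives), and its transcript Adm-201 missed the threshold (log2 change 0.84, limma adjusted p = 0.0525).

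Ankrd37 (ENSMUSG00000050914.16, chr8:45996902-46005707, minus strand) encodes a small ankyrin repeat protein known as a HIF-1 target. It measured 1.51, 1.11, 2.44 and 1.72 FPKM in BAC 1 to 4, and 0.626, 0.369, 0.559 and 0.126 FPKM in PBS 1 to 4. Every BAC library was higher than every control, with BAC 3 highest and PBS 4 lowest. The mean was 4.04-fold higher (log2 change 0.92, SE 0.17, limma adjusted p = 0.000925), but it did not pass after quantile normalization (log2 change 0.38, limma adjusted p = 0.0777; 0.000675 to 0.0777 over 17 alternatives). With a pseudocount of 0.1 its log2 change was 1.87. The gene overlaps Ufsp2 and Lrp2bp on the other strand, and whether strand was used in counting is not given in the sources used here. Its listed coding transcript supplied 0% to 44.2% of the gene value in a library and was too low to be tested. Unlike the gene, that transcript overlapped between the groups, at 0.0703 to 1.77 FPKM with BAC and 0 to 0.381 FPKM with PBS.

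Ndrg1 (ENSMUSG00000005125.12, chr15:66929321-66969640, minus strand), a gene induced by hypoxia and by differentiation in many epithelia, went the other way. Its values were 10.6, 9.80, 10.7 and 11.1 FPKM in BAC 1 to 4, and 20.3, 17.0, 18.8 and 14.9 FPKM in PBS 1 to 4. BAC libraries were low and alike, and controls were higher and more spread. Ndrg1 fell 1.68-fold, from 17.7 ± 2.32 to 10.5 ± 0.556 FPKM (log2 change -0.69, SE 0.09, limma adjusted p = 0.000138). Its listed transcript Ndrg1-201 stood 2.23 times above the gene value with BAC and 2.25 times with PBS, so levels of this gene are understated alike in both groups.

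Mgarp had the largest change of the members. Mgarp (ENSMUSG00000037161.14, chr3:51388412-51396738, minus strand) encodes a mitochondrial protein that binds TRAK adaptors of mitochondrial transport and is a known HIF-1 target in neurons. It was at 34.6, 35.3, 32.7 and 13.1 FPKM in BAC 1 to 4 and at 1017, 931, 845 and 1040 FPKM in PBS 1 to 4. All BAC libraries were low, and BAC 4 lay below the other 3. The mean fell 33.1-fold, from 958 ± 89.1 to 28.9 ± 10.6 FPKM (log2 change -5.09, SE 0.28, limma adjusted p = 3.91e-07), the 11th largest fall of all genes tested. By level it ranked 30 of all genes with PBS and 1570 with BAC.

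All 3 Mgarp transcripts listed fell. Mgarp-201 went from 784 ± 96.7 to 18.2 ± 7.08 FPKM (log2 change -5.45, limma adjusted p = 7.21e-06). Mgarp-202 went from 546 ± 33.8 to 17.8 ± 7.08 FPKM (log2 change -4.97) and Mgarp-203 from 150.0 ± 23.4 to 7.65 ± 3.88 FPKM (log2 change -4.28). Mgarp-201 was the most abundant in every PBS library, whereas Mgarp-201 and Mgarp-202 overlapped with BAC.

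**Figure D3:**
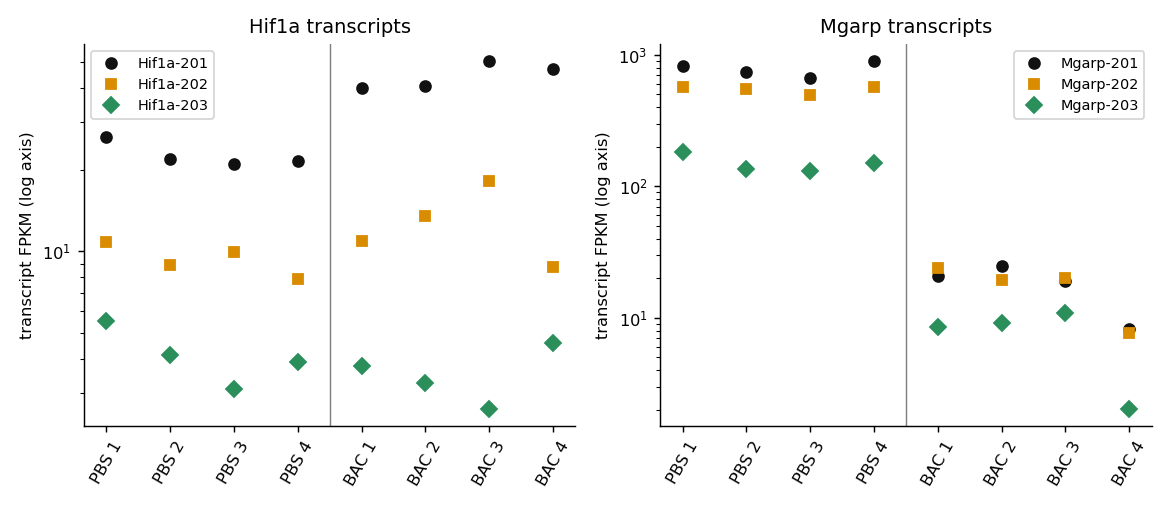
Transcript FPKM (y axis, log scale) of Hif1a (left) and Mgarp (right) in each of the 8 libraries. Hif1a-201 lies above the other Hif1a transcripts in every library and is higher with BAC, and all 3 Mgarp transcripts are lower with BAC, lowest in BAC 4.

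The order of the members by level changed between the groups. With PBS, Mgarp (958 FPKM), Egln3 (394) and Epas1 (132) stood above the rest without overlap, followed by Hif1a (26.4), Egln1 (20.5), Ndrg1 (17.7), Ddit4 (4.35), Adm (1.86) and Ankrd37 (0.420). In that order the libraries of Egln1 and Ndrg1 overlapped and those of the other neighbours did not. With BAC, Hif1a (46.4 FPKM) and Epas1 (41.9) overlapped at the top. Mgarp (28.9) overlapped Ddit4 (25.4) and, through BAC 4 at 13.1, the ranges of Egln1 (15.8) and Egln3 (14.5). Egln1 and Egln3 also overlapped each other. Ndrg1 (10.5), Adm (4.03) and Ankrd37 (1.70) followed without overlap. This order uses gene values; by its listed transcript Ndrg1 was at 39.9 ± 5.19 FPKM with PBS and 23.5 ± 1.08 FPKM with BAC, above Egln1 in both groups. The order with BAC also depends on this choice: the summed Hif1a transcripts, at 54.7 to 70.9 FPKM, lay above Epas1 without overlap, and the summed Mgarp transcripts averaged 43.6 FPKM, at 17.9 in BAC 4 and up to 53.5 in the others. The 3 members that led in controls were the 3 with the largest falls.

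Under median-of-ratios scaling the 9 members kept their directions and calls, with 4 higher and 5 lower, and quantile normalization left 2 higher and 5 lower. Those scalings moved the median of all genes to 0.01 and -0.08 log2. For all genes they gave 4467 higher and 4229 lower, and 3946 higher and 4967 lower, against 5845 and 2926 on the deposited scale.

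**Figure D4:**
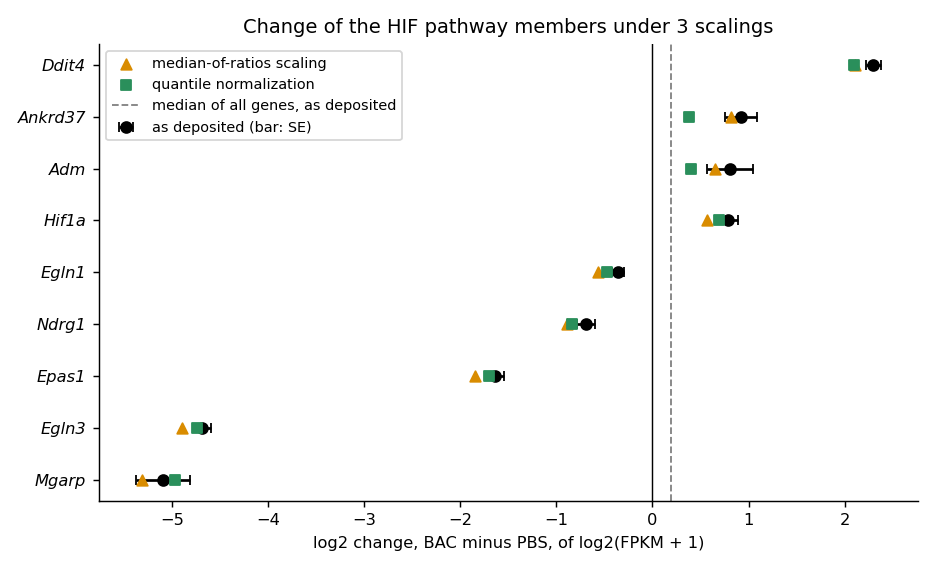
Log2 change with BAC (x axis, BAC minus PBS of log2(FPKM + 1)) of each member on the deposited scale (black, bar SE) and under 2 rescalings, with the median of all genes at 0.19 dashed. Each member stays on its side of 0 under all 3, from -5.09 for Mgarp to 2.30 for Ddit4 as deposited.

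Other genes of the pathway were read from 8 lists chosen by function. Of 104 rows tested in them, 55 were higher and 20 lower with BAC, beside 45.1% and 22.6% of all genes on the deposited scale. The counts were 49 and 32 under median-of-ratios scaling, where 4467 of all 12967 genes were higher and 4229 lower. They were 49 and 35 under quantile normalization, where 3946 of all genes were higher and 4967 lower. Slc16a3, Cxcr4, Cox4i2, Ramp1, Ramp3, Ddit4l and Deptor averaged under 0.5 FPKM with PBS and passed the filter only through BAC, which fixed their direction.

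The list of HIF beta subunits and cofactors held partners as well as competitors of the alpha subunits, and none of its genes was higher. Of 9 genes in it 4 were lower and 5 did not pass, with a median of -0.39 log2 against 0.19 for all genes (limma; 7 lower under median-of-ratios scaling, and 9 lower with a median of -0.71 under quantile normalization). Arntl, the clock gene whose product can pair with HIF alpha subunits, fell 3.33-fold, to 2.91 ± 0.183 from 9.67 ± 0.427 FPKM. Cited4 and Cited2, whose products compete with HIF for the coactivator p300, fell by 2.73 and 0.72 on the log2 scale, and Ncoa1, a coactivator, by 0.39. The constant partner Arnt was at 6.40 ± 0.366 against 6.77 ± 0.409 FPKM and did not pass (log2 change -0.07, limma adjusted p = 0.377); Arnt is named after its values were seen.

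In the list for oxygen sensing and HIF degradation 7 of 11 genes were higher and 2 lower, with a median of 0.27 log2 beside 0.19 for all genes. The counts became 3 and 3 under median-of-ratios scaling, with a median of 0.063, and 4 and 2 under quantile normalization, with a median of 0.14. Hif1an, the asparaginyl hydroxylase that blocks HIF activity, fell 1.49-fold, to 6.49 ± 0.637 from 9.67 ± 0.786 FPKM. The SIAH ubiquitin ligases, which degrade prolyl hydroxylases, went both ways. Siah1a fell by 0.87 on the log2 scale and Siah2 rose by 0.83, or 0.39 under quantile normalization. Siah1b, named after its values were seen, rose by 0.59 on the deposited scale (limma adjusted p = 0.00307). Elob, a subunit of the von Hippel-Lindau ligase, rose 1.34-fold, a log2 change of 0.42 that was 0.20 under median-of-ratios scaling. Vhl itself was at 7.02 ± 2.36 against 8.34 ± 0.633 FPKM and did not pass (limma adjusted p = 0.265); it is also named after its values were seen.

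Glycolytic targets were mostly higher. Of 19 genes for glucose uptake and glycolysis 14 were higher and 2 lower, beside 45.1% and 22.6% of all genes. Their median was 0.94 log2, against 0.19 for all genes. Under median-of-ratios scaling and quantile normalization 14 were higher as well, beside 4467 and 3946 of all 12967 genes. Pfkl, a phosphofructokinase, was at 14.1 ± 0.421 against 6.85 ± 0.236 FPKM, 2.06-fold higher. Pgam1, a mutase of the same pathway, was at 116 ± 11.1 against 42.8 ± 3.05 FPKM, 2.71-fold higher. The kinase gene Pgk1 had a log2 change of 1.43. The lactate exporter Slc16a3 rose by 2.62 on the log2 scale, but passed the filter only through BAC. Of 42 other hypoxia targets 23 were higher and 10 lower, beside 45.1% and 22.6% of all genes, with a median of 0.84 log2. Rescaling changed these counts to 22 and 14 by median of ratios (list median 0.64) and to 23 and 13 by quantiles (0.58). Lox, a collagen crosslinking enzyme, was at 84.4 ± 18.6 against 4.30 ± 1.37 FPKM, 19.6-fold higher. The carbonic anhydrase gene Car12 was 25.7-fold higher, at 30.0 ± 5.14 against 1.17 ± 0.209 FPKM. The chemokine receptor gene Cxcr4, also expressed by leukocytes, rose by 4.17 log2, but passed the filter only through BAC. Ppp1r3c, a glycogen-targeting phosphatase subunit, was at 0.801 ± 0.104 FPKM against 202 ± 6.27 FPKM.

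Partners of single members were mixed. The counts here stand beside 45.1% of all genes higher and 22.6% lower on the deposited scale. Of 5 genes for adrenomedullin receptors 4 were higher, with a median of 1.09 log2, the value of Ramp3. Ramp1 and Ramp3 passed the filter only through BAC, so their direction was fixed and their calls are no evidence. Under quantile normalization 3 were higher with a median of 0.61, and the median was 2.03 with a pseudocount of 0.1. The receptor gene Calcrl was 4.10-fold higher, at 8.91 ± 1.35 against 2.17 ± 0.756 FPKM, and its accessory subunits Ramp1, Ramp2 and Ramp3 rose by 0.67, 1.61 and 1.09 log2. The groups overlapped for Ramp2, and Ramp1 did not pass after quantile normalization. All 10 markers of vessel endothelium, a cell type that uses this receptor, were higher in the same libraries, and 8 under quantile normalization. Of these rows 1 passed the filter only through BAC. Their part in the receptor changes was not tested. Of the other members of the NDRG family Ndrg2 rose by 1.39 log2, and Ndrg3 and Ndrg4 did not pass, at 0.15 and -0.11; Ndrg4 passed as lower under both rescalings, at -0.26 and -0.54. Of 11 genes for mTORC1 and its stress inhibitors 4 were higher and 2 lower (3 and 4 under median-of-ratios scaling, 2 and 6 under quantile normalization). The Ddit4 paralog Ddit4l and the inhibitor Deptor rose by 1.599 and 1.24 log2, but both passed the filter only through BAC. The sestrin genes Sesn1 and Sesn2 changed by -0.80 and 0.50, of which Sesn2 did not pass under quantile normalization, at 0.16. Of the partners of Mgarp in mitochondrial transport, Trak2 and Rhot1 rose 1.92-fold and 1.66-fold, while Trak1 and Rhot2 did not pass, at 0.23 and -0.07 log2; Rhot2 passed as lower under both rescalings, at -0.26 and -0.32.

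**Figure D5:**
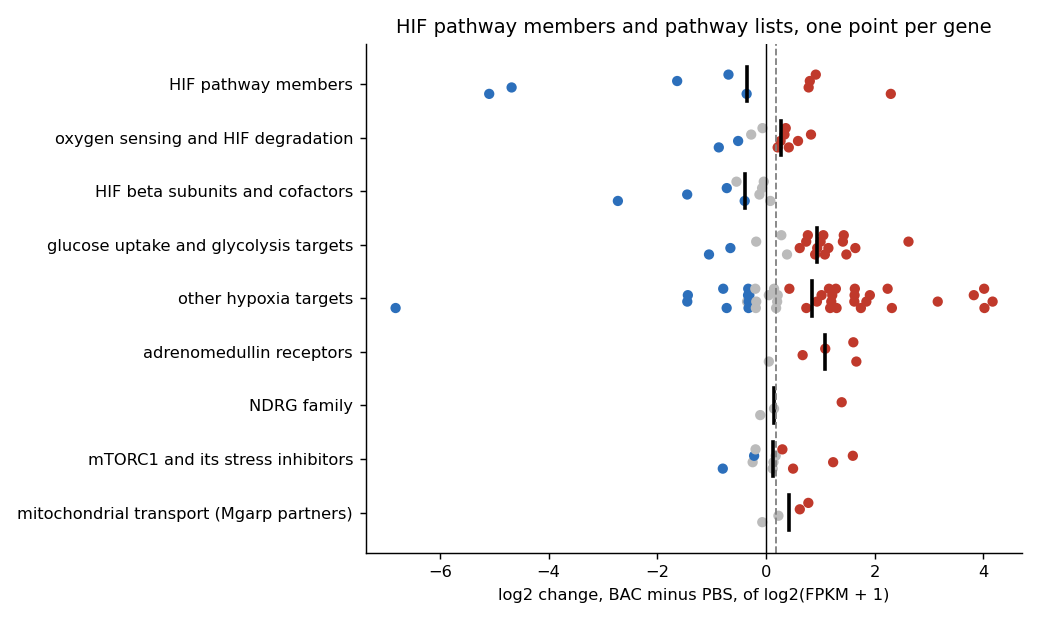
Log2 change with BAC (x axis) of the members and of each tested gene in the 8 pathway lists, with red for higher, blue for lower and grey for not passing, a black bar at each list's median and the median of all genes dashed. The glycolysis list has its median at 0.94 and the list of beta subunits and cofactors at -0.39.

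The 2 genes nearest in pattern to a member were found by the root mean square distance of log2(FPKM + 1), centred on the PBS mean, over all 8 libraries. For Hif1a these were Mcfd2 (distance 0.051) and Rilpl2 (0.071). For Ndrg1 they were Cab39 (0.070) and Acbd4 (0.072). Mgarp had no close neighbour, with Cyp4a12a at 0.41 and Erich5 at 0.45. The distance for Mgarp is on its much larger change, and Erich5 went from 116 ± 9.47 to 3.98 ± 1.09 FPKM. Cyp4a12a went from 31.6 ± 5.40 to 0.0101 ± 0.0201 FPKM and was listed at 0 in 3 BAC libraries. Its distance to Mgarp therefore depends on the pseudocount of 1.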

How the data were processed

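RNA was extracted with Trizol from mouse corneas and sequenced from a KAPA stranded kit, per the labels' protocols, in 4 BAC and 4 PBS samples grouped by their titles. HISAT2 2.1.0, StringTie 1.3.3 and GRCm38 are named in the submitters' processing notes. The authors deposited FPKM per gene and per transcript; read depth is unknown, so no counting interval is given. A gene's FPKM equalled its transcripts' FPKM weighted by length and divided by the union of exons, within 1%, in 436 of 436 genes checked against GENCODE M21.

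Rows whose FPKM averaged 0.5 or more across the 8 samples entered limma (version 3.58.1, R 4.3.3) on log2(FPKM + 1), so the pseudocount was 1. The model held group alone, with a trended prior. Tests were two-sided, Benjamini-Hochberg adjustment ran over every row kept, and the threshold was 0.05. This scale understates changes of low genes; folds are ratios of group means. Shares and ratios were tested by exact permutation over 70 assignments. Members and lists were chosen with earlier results of these data known. Named were all members, for each list the 4 genes lowest in adjusted p, and the 2 genes nearest in pattern to Hif1a, Mgarp and Ndrg1; others are marked. For the marker lists not every gene so named is printed. The test was tried on simulated data first. Alternatives covered the pseudocount (0.1), the filter (none, or 2), 3 rescalings, an untrended and a robust prior, array weights, a replicate block and each sample left out. Figures used Python 3.11.15 and matplotlib 3.10.9.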

Additional observations from a re-analysis of the deposited data

Results flagged for a closer look

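In 112 groups of 4 samples the highest or lowest sample was compared with the others, and 9 stood apart by Dixon's criterion, where chance gives about 1 in 20. PBS 1 accounted for 5 of them. Its Hif1a was 30.9 FPKM against 24.3 to 25.4 in the other controls, and its Hif1a-201 was 26.4 FPKM against 21.0 to 21.9. PBS 1 also had the lowest Epas1 of the controls, 113 FPKM. Its share of Hif1a in the sum of Hif1a and Epas1 was 21.5% against 15.0% to 15.4%. Its log2 ratio of Epas1 to Hif1a was 1.84 against 2.41 to 2.46. These 4 values all involve Hif1a and are not independent. Slc16a3 was 0.322 FPKM in PBS 1 against 0.0604 to 0.0874 in the other controls.

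Mgarp was 13.1 FPKM in BAC 4 against 32.7 to 35.3 in the other BAC libraries, and Car12 was 22.4 FPKM in BAC 4 against 31.6 to 33.3. Cited2 was 8.07 FPKM in BAC 1 against 14.4 to 15.4 in the others. Rhot1 was 7.83 FPKM in BAC 2 against 7.44 to 7.50.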

How the results depend on the processing

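Of 2473 alternative values, 2393 kept their direction and call or moved little, 54 moved further, 18 crossed the threshold and 8 changed sign. All 9 members kept their direction under every alternative run, and their calls except for Adm and Ankrd37 after quantile normalization, which left 2 members higher in place of 4. Lower genes in the pathway lists numbered 32 under median-of-ratios scaling and 35 under quantile normalization against 20. Among all genes tested, lower genes numbered 4229 and 4967 under those rescalings against 2926. The median of the mTORC1 list was -0.027 with a filter at 2, -0.020 under median-of-ratios scaling and -0.25 under quantile normalization, against 0.14. The NDRG family median and Ndrg3, the same value, went from 0.15 to -0.036 and -0.14 under those rescalings, and Trak1 was -0.10 after quantile normalization. The cause was not tested. Adm-201 passed without BAC 1 (limma adjusted p = 0.0446) or PBS 1 (0.0481), within 0.0446 to 0.156 over 13 alternatives.

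With a replicate block 5693 genes were higher and 2826 lower and no call of a member changed. The share of Hif1a (35.7 points) and the log2 ratios of Egln3 to Egln1 (-4.33) and Epas1 to Hif1a (-2.42) had a paired exact permutation p of 0.125, the smallest that 4 pairs allow. The numbers were not taken as pairs, since the labels state no pairing and same-numbered libraries had correlated deviations of 0.0527 for number 1, under the 0.1 asked of every pair, and 0.109 to 0.121 for the others. As a hint from the data, 3 of 4 BAC libraries correlated best with their own number and BAC 1 with PBS 2. Over the other alternatives, each library left out included, these 3 values ran from 34.8 to 37.5 points, -4.39 to -4.26 and -2.57 to -2.36. Planned results on Hif3a were not run. Unknown depth limits the low genes Adm and Ankrd37.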

Other observations

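Within the list of other hypoxia targets and that for glucose uptake and glycolysis, single genes were picked out after their values were seen. No count over them is therefore given, and 45.1% of all genes tested were higher. P4ha1 and P4ha2, subunits of collagen prolyl hydroxylase, rose by 1.22 and 1.16 log2, the lysyl hydroxylase genes Plod1 and Plod2 by 0.94 and 2.24, and the lysyl oxidase genes Lox and Loxl2 by 4.02 and 3.16. Of the keratocyte and fibroblast markers 8 of 11 were higher in the same libraries, and their part in these changes was not tested. The histone demethylase gene Kdm3a fell by 0.72 log2 and Kdm4b by 0.32, and Kdm4c did not pass at -0.20.

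Some closely related targets, from both lists and likewise picked after their values were seen, moved apart. The mitophagy receptor gene Bnip3 rose from 2.09 ± 0.857 to 10.01 ± 2.54 FPKM, while its paralog Bnip3l fell from 58.1 ± 5.56 to 33.3 ± 3.69 FPKM. Among glycolytic targets Aldoa rose by 0.62 log2 and its paralog Aldoc fell by 1.05. Pdk1, a kinase that inhibits pyruvate dehydrogenase, fell from 14.5 ± 0.255 to 8.86 ± 0.791 FPKM, whereas Ldha, the lactate dehydrogenase subunit, rose by 0.91 log2. Vegfa, the vessel growth factor, reached 9.57 ± 1.40 FPKM in BAC libraries from 2.42 ± 0.542 FPKM in controls, and Edn1, the vasoconstrictor endothelin, was at 3.63 ± 0.417 against 11.6 ± 0.432 FPKM. Car9, a carbonic anhydrase often used as a marker of hypoxia, was at 0.948 ± 0.278 against 0.924 ± 1.05 FPKM and did not pass (limma adjusted p = 0.684).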
